A study of Mus musculus with 44 samples.

Results

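A set of 10 genes of glycolysis was followed through the 12 sample groups of the series. The genes were picked by name and not by a measured value, but with earlier results of these data known. They are the glucose transporters Slc2a1 and Slc2a3, the kinases Hk2 and Pfkp, the lower-pathway enzymes Aldoa, Pgk1, Eno1 and Pkm, the lactate dehydrogenase Ldha and the pyruvate dehydrogenase kinase Pdk1, and all 10 were found among the 32287 gene identifiers of the deposited tables. The study used mouse embryos in which mCherry+ CD1/G4 host morulae were aggregated with GFP+ G4 embryonic stem cells, so that embryonic cells are green and extraembryonic cells are red, and it asked how extraembryonic endoderm cells that enter the gut compare with their embryonic neighbours. Low-input bulk RNA-seq was read as TPM, a transcript level corrected for gene length and library size that allows genes to be compared with each other within a library.

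At E6.5 the groups were the epiblast (Epi), the distal extraembryonic endoderm (exEndo 1) and the proximal extraembryonic endoderm (exEndo 2), each dissected from single wild-type embryos. At E9.5 they were the extraembryonic (mCherry+) and embryonic cells of the midgut and hindgut (exMidgut, exHindgut, emMidgut and emHindgut) and the yolk sac endoderm (YsEndo), all wild type and sorted from pooled embryos. The embryonic gut cells of that stage were an EPCAM+ GFP+ fraction with weak mCherry signal. Each group of these stages had 4 libraries. By the study's methods, replicates were individual embryos at E6.5 and separate pools of embryos at E9.5, and whether libraries of equal number in different groups came from the same embryos is not given in the sources used here. At E13.5 the groups were colon and small intestine (exColon, exSI, emColon and emSI) with 3 libraries each, from single embryos, and there the extraembryonic cells were Trp53 knockout while the embryonic cells were wild type, so origin and genotype cannot be told apart. All GFP+ cells descend from 1 male stem cell line whereas the mCherry+ hosts were of either sex, which bears on the X-linked Pgk1.

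Glycolysis splits glucose into pyruvate. Glucose enters through facilitative transporters, is phosphorylated and trapped by hexokinases, and is committed to the pathway by phosphofructokinase. Aldolase, phosphoglycerate kinase, enolase and pyruvate kinase then carry the carbon to pyruvate with a yield of ATP. Lactate dehydrogenase A turns pyruvate into lactate, and pyruvate dehydrogenase kinase 1 holds back the oxidation of pyruvate in the mitochondrion by inhibiting pyruvate dehydrogenase. Most of these steps have several isoenzymes whose use differs between tissues, the genes are classical targets of hypoxia-inducible factors and of Myc, and the early post-implantation epiblast is known as a strongly glycolytic tissue.

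In the mm10 build of the files, the transporters lie at chr4:119108711-119137983 (Slc2a1, plus strand) and chr6:122727809-122801640 (Slc2a3, minus strand), and the kinases at chr6:82725025-82774454 (Hk2, minus strand) and chr13:6579768-6648777 (Pfkp, minus strand). The lower-pathway genes are Aldoa at chr7:126795234-126800751 (minus strand), Pgk1 at chrX:106187100-106203699, Eno1 at chr4:150236721-150248879 and Pkm at chr9:59656368-59679375 (all plus strand). Ldha is at chr7:46841475-46855627 and Pdk1 at chr2:71873224-71903858, both on the plus strand.

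The windows upstream of 4 members are shown because they hold the short core of the hypoxia response element in different numbers, within genes of different behaviour. They are read 5′ to 3′ on the gene's own strand from the RefSeq promoter table (GRCm38.p6), they stop before annotated transcript bases, and capitals mark ACGTG or GCGTG on either strand (so CACGT and CACGC on the strand shown).
Slc2a1 (chr4:119108495-119108710, plus strand): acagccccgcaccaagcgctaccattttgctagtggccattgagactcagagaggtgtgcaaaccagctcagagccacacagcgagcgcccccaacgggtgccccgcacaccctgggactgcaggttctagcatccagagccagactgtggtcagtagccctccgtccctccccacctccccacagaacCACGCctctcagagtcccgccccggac
Pgk1 (chrX:106186850-106187099, plus strand): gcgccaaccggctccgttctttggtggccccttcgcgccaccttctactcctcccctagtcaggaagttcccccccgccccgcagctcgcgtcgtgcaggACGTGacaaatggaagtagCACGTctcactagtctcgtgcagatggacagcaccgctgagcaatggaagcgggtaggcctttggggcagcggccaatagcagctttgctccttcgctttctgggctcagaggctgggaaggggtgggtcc
Hk2 (chr6:82774455-82774704, minus strand): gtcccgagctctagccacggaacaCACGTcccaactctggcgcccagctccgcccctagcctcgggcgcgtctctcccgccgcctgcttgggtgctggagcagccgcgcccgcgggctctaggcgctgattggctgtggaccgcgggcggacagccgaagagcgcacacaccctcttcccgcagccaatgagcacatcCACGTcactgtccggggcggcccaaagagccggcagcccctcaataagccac
Ldha (chr7:46845554-46845803, plus strand): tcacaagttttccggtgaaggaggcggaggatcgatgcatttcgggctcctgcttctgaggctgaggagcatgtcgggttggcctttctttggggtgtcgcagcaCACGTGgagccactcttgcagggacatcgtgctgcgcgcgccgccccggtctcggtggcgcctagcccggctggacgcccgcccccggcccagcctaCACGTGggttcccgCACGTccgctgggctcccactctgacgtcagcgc

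The Slc2a1 stretch shown holds 1 match, those of Pgk1 and Hk2 hold 2 each and that of Ldha holds 5, in which each palindromic CACGTG counts once on each strand. The Slc2a1 stretch is cut short, and the full 250 bases before its start held 2 matches. Slc2a3 has no entry in the table. Over the 250 bases before the start, 13 of the 16 windows of the other 9 members held ACGTG or GCGTG (81.2%), against 38.6% of all 32851 windows, and each of the 9 had at least 1 such window. ACGTG alone was found in 7 of the 16 windows and in 16.6% of all windows. Windows of the same gene can overlap, so sites of Eno1 and Aldoa were counted in more than 1 window. A match describes the letters and is not a measured binding site.

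The members spanned a wide range of levels and differed in how far they varied over the groups. Ldha had the highest mean TPM of the set in 12 of 12 groups, between 2751 ± 889 TPM in exSI (SD, n = 3) and 6523 ± 183 TPM in Epi (SD, n = 4), a ratio of 2.37 between the highest and the lowest group mean. Pgk1 had a ratio of 2.91, from 331.9 TPM in YsEndo to 965.8 TPM in Epi. The 2 glucose transporters and Hk2 varied far more, with a ratio of 8.23 for Slc2a1, 14.7 for Hk2 and 27.5 for Slc2a3. Pfkp had the largest ratio of the set, 815, with a lowest group mean near 0 (0.07 TPM in exSI). Together the 10 genes took up 1.53% ± 0.25 (SD) of all TPM in emMidgut and 1.53% ± 0.21 in emHindgut, 1.41% ± 0.14 in Epi, 1.14% ± 0.20 in exMidgut, 0.83% ± 0.07 in YsEndo and 0.76% ± 0.06 in exEndo 1 (n = 4 each).

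**Figure D1:**
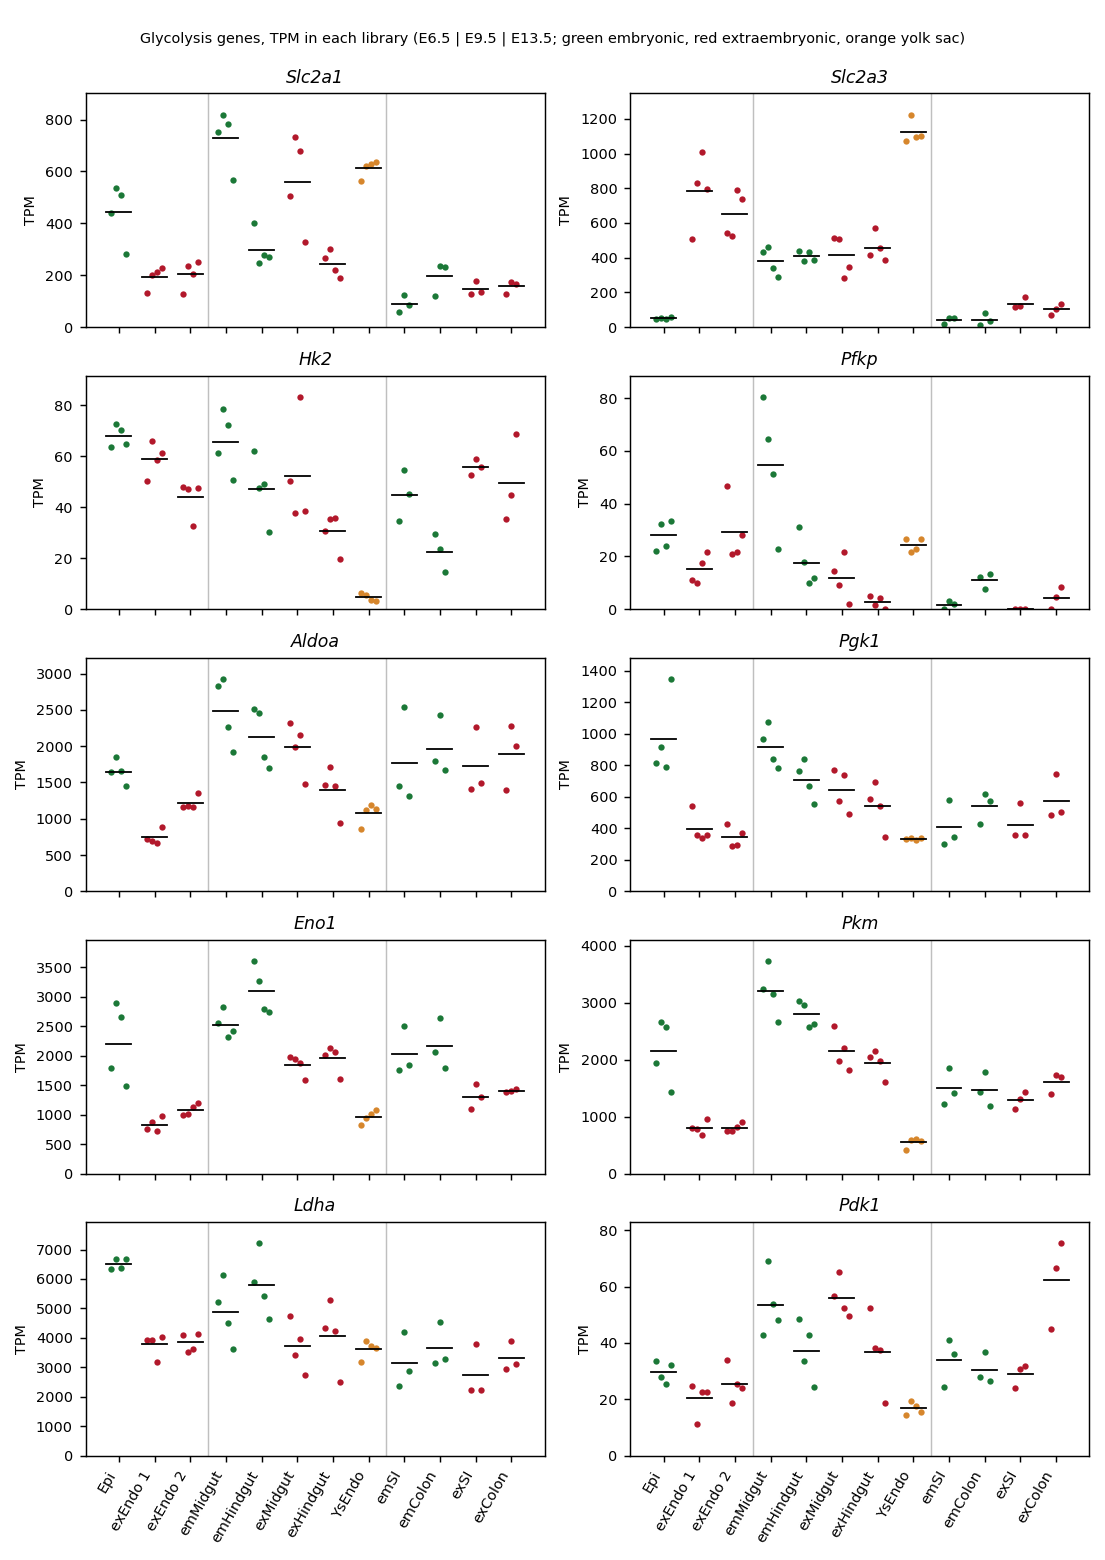
TPM of the 10 glycolysis genes in every library (points) with the group mean (black line), on linear axes that start at 0; green groups are embryonic, red ones extraembryonic and the orange one yolk sac endoderm, with E6.5, E9.5 and E13.5 separated by grey lines. Slc2a3 was lowest in the epiblast and the E13.5 embryonic groups and highest in yolk sac endoderm, where Hk2 and Pkm were at their lowest.

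Slc2a3, the high-affinity glucose transporter GLUT3, had the order YsEndo 1122 ± 69.2 TPM, exEndo 1 786.3 ± 206 TPM, exEndo 2 649.8 ± 136 TPM, then the 4 gut groups of E9.5 between 381.1 and 457.8 TPM (SD, n = 4 each). At the bottom were exSI with 134.1 ± 31.7 TPM, exColon with 102.4 ± 31.3 TPM, Epi with 50.98 ± 3.6 TPM, emColon with 43.0 ± 35.3 TPM and emSI with 40.75 ± 21.0 TPM. The libraries of neighbours in this order did not overlap between YsEndo and exEndo 1, between emMidgut and exSI, and between exColon and Epi, and all the other neighbours overlapped. Slc2a1, the general transporter GLUT1, was highest in emMidgut (729.8 ± 113 TPM), YsEndo (611.6 ± 33.8 TPM) and exMidgut (560.9 ± 184 TPM), and lowest in emSI (88.72 ± 32.4 TPM), which alone was set apart from its neighbour in the order.

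Hk2, the inducible hexokinase that binds mitochondria, lay between 22.5 and 67.7 TPM in 11 groups, and every neighbour in that run overlapped. YsEndo stood apart at 4.62 ± 1.5 TPM. Pkm, the muscle-type pyruvate kinase, ran from 3200 ± 435 TPM in emMidgut to 547.6 ± 89.8 TPM in YsEndo, with gaps between exSI (1290 ± 153 TPM) and exEndo 1 (804.8 ± 119 TPM) and between exEndo 2 (802.8 ± 78.1 TPM) and YsEndo. Pfkp, the platelet-type phosphofructokinase, was a minor and variable transcript, at 54.8 ± 24.5 TPM in emMidgut and 0.07 ± 0.09 TPM in exSI, and each neighbour in its order overlapped.

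The members did not follow a single order over the groups. Pearson's r between a member's group means on the log2(TPM + 1) scale and the mean of the other 9 was 0.73 for Ldha, 0.71 for Pgk1, 0.67 for Slc2a1 and 0.51 for Pkm, but 0.10 for Hk2 and -0.03 for Slc2a3. These are descriptions over 12 group means that differ in stage, tissue and collection. The genes most like the mean of the set over the same 12 points, among 14683 genes, were Bhlhe41 (r = 0.949), Fhod3 (r = 0.93), Rb1 (r = 0.923), Ppp4r1 (r = 0.912) and Gls2 (r = 0.91).

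The choice of isoenzyme gave another view of the same groups. Of the summed TPM of Slc2a1 and Slc2a3, Slc2a3 made up 10.9% ± 3.78 in Epi but 80.1% ± 2.01 in exEndo 1, 76.0% ± 5.28 in exEndo 2 and 64.7% ± 1.52 in YsEndo (SD, n = 4 each). In the E9.5 gut it made up 58.3% ± 4.09 in emHindgut, 65.4% ± 2.9 in exHindgut, 34.2% ± 2.79 in emMidgut and 43.1% ± 10.3 in exMidgut. Hk2 made up 93.8% ± 1.84 of hexokinase TPM in Epi, where Hkdc1, a hexokinase domain enzyme, made up 0.157% ± 0.152. In YsEndo the same shares were 4.98% ± 2.47 for Hk2 and 94.9% ± 2.54 for Hkdc1, and in exEndo 1 they were 54.5% ± 9.32 and 44.5% ± 9.07. Hkdc1 made up 35.8% ± 9.24 in emMidgut and 41.9% ± 9.26 in exMidgut, but 5.38% ± 3.79 in emHindgut and 13.3% ± 5.61 in exHindgut.

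Pkm stayed at or above 95.9% of pyruvate kinase TPM in every group. The exporters split likewise: Slc16a1 made up 17.4% ± 11.6 of Slc16a1 plus Slc16a3 in Epi and 94.7% ± 2.96 in exEndo 1, 97.2% ± 0.983 in exEndo 2 and 99.6% ± 0.188 in YsEndo. Eno1b, a near-identical copy of Eno1, took 19.0% to 23.8% of their sum in every group, so the level of Eno1 is uncertain to that extent, since reads of the copies may be divided between them.

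**Figure D2:**
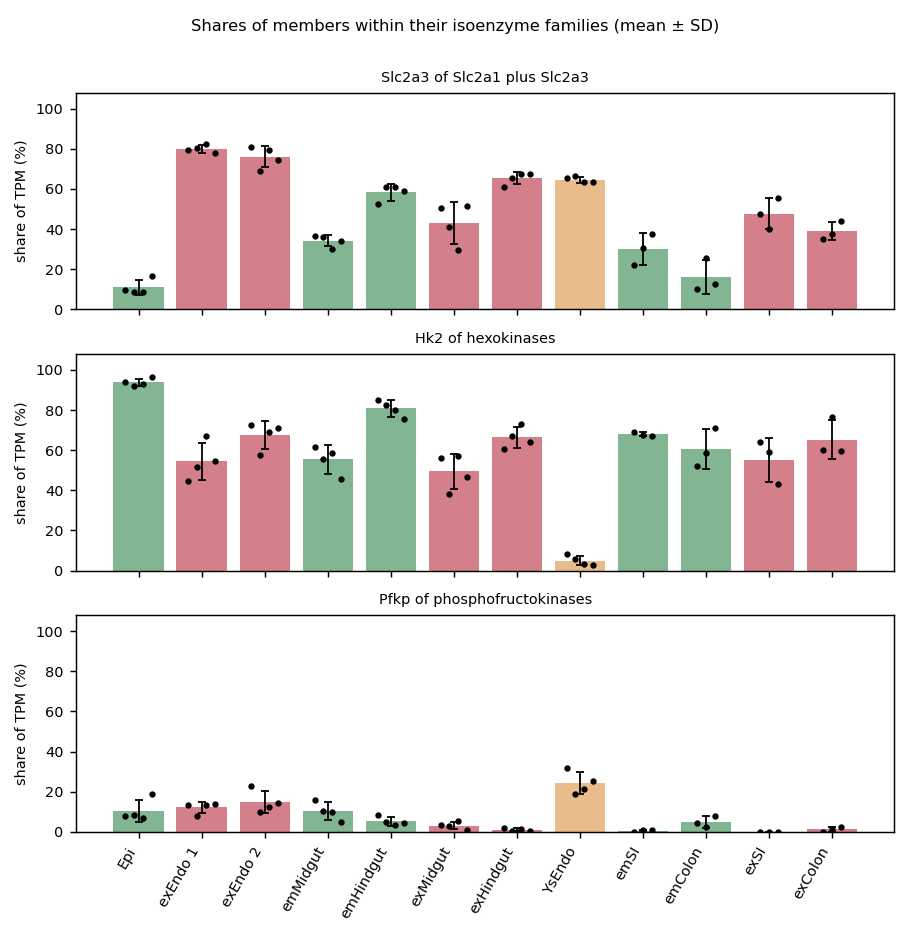
Share (%) of Slc2a3 in the sum of Slc2a1 and Slc2a3 and of Hk2 and Pfkp in the TPM of their isoenzyme families, with bars for the group mean, lines for the SD and points for the libraries; colours as in the plot of levels. Yolk sac endoderm had 4.98% Hk2, and Slc2a3 went from 10.9% in Epi to 80.1% in exEndo 1.

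Library quality and labels were checked on the groups' own markers before the comparisons. Aligned bases per library, estimated from the deposited coverage, were 2.06 to 7.02 Gb, and 10382 to 13596 genes passed 1 TPM. EGFP was at group means of 385.1 to 787.1 TPM in the embryonic groups and at most 7.68 TPM elsewhere, and mCherry was at 3362 to 7296 TPM in the extraembryonic groups and at most 2.39 TPM in the embryonic ones. The knocked-out Trp53 still gave 96.5 ± 46.7 TPM in exColon and 105.7 ± 67.3 TPM in exSI against 207.3 ± 49.4 TPM in emColon and 177.1 ± 21.9 TPM in emSI (SD, n = 3), 1 exSI library (166.7 TPM) lay within the embryonic range, and a gene-level value does not show which part of the transcript was left. Summed blood markers were at most 12.6 TPM and summed endothelial markers at most 5.64 TPM in every library. Among the libraries that stood apart, emMidgut replicates 1 and 3 had the germ cell genes Pou5f1 (93.6 and 131 TPM) and Dppa3 (224 and 183 TPM), both at 0 in the other emMidgut libraries, and emSI replicate 1 had 384 TPM of summed mesenchyme markers against 96.7 and 1.75 TPM. Epiblast markers summed to 48.5 to 214 TPM in exEndo 1 against 1410 to 2540 TPM in Epi, and 1 of them, Fgf5, was at 32.4 to 155 TPM in exEndo 1 and 97.9 to 150 TPM in Epi.

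Extraembryonic endoderm of E6.5 was set against the epiblast to ask how the starting tissues of the 2 gut lineages differ. Here and below a gene was called when the Benjamini-Hochberg adjusted p over all tested genes was below 0.05 and the log2 fold change on the log2(TPM + 1) scale was beyond 1. In exEndo 1, Slc2a3 rose while Slc2a1, Aldoa, Pgk1, Eno1 and Pkm fell, so that 1 member was called higher, where 19.8% of the 12057 tested genes were called higher, and 5 were called lower, where 13.6% of genes were. In exEndo 2, Slc2a3 rose and Slc2a1, Pgk1 and Pkm fell, 1 and 3 members against 20.4% and 15.4% of 12046 genes. The median log2 fold change of the 10 members was -1.02 in exEndo 1 and -0.70 in exEndo 2, and that of all genes was 0.09 and 0.05. Both comparisons share the Epi libraries, and in bulk RNA fewer cells with a transcript and less of it in each cell cannot be told apart.

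The transporters moved in opposite directions. Slc2a3 was at 48.0, 51.1, 48.8 and 56.0 TPM in the 4 Epi libraries, at 509.8, 829.9, 1008 and 797.6 TPM in exEndo 1 and at 541.8, 525.7, 790.7 and 740.9 TPM in exEndo 2. Every endoderm library was above every epiblast library by a wide gap. Of all genes, 32.0% in exEndo 1 and 32.1% in exEndo 2 had every library above Epi. For 24.6% and 27.2% of genes every library was below Epi. The log2 fold change was 3.88 (SE 0.182, adjusted p = 1.73e-08) in exEndo 1 and 3.63 (SE 0.148, adjusted p = 1.91e-09) in exEndo 2.

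Slc2a1 ran the other way, at 441.3, 537.7, 509.8 and 282.1 TPM in Epi, 130.7, 202.3, 212.3 and 228.3 TPM in exEndo 1 and 128.6, 234.5, 204.5 and 250.8 TPM in exEndo 2. Epi replicate 4 was the lowest of its group and still above all 8 endoderm libraries. The log2 fold change was -1.18 (SE 0.223, adjusted p = 0.000749) in exEndo 1 and -1.11 (SE 0.235, adjusted p = 0.0013) in exEndo 2, and the latter was -0.91 and no longer called without exEndo 2 replicate 1.

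**Figure D3:**
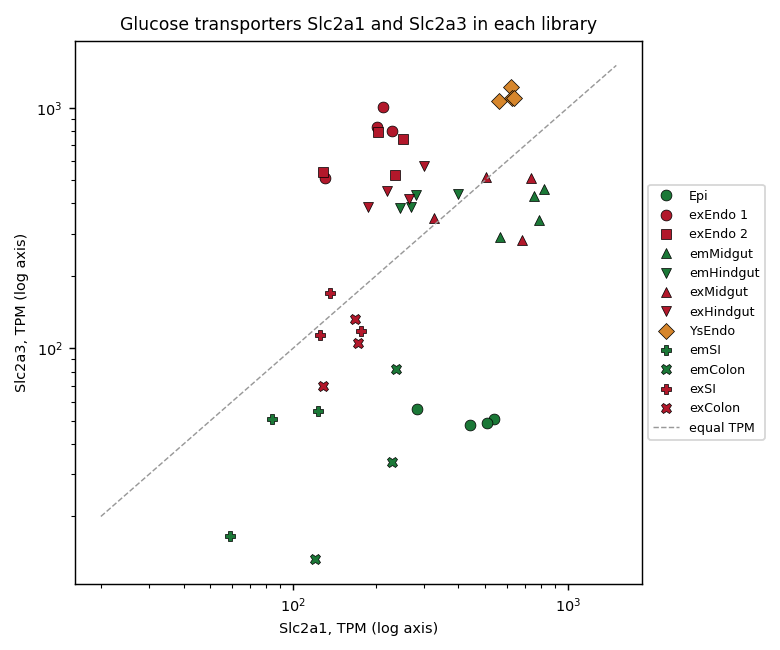
Slc2a3 against Slc2a1 in each of the 44 libraries, in TPM on log axes, with symbols for the groups and a dashed line of equal TPM. Epi libraries lay far below the line (48.0 to 56.0 TPM of Slc2a3), the E6.5 extraembryonic endoderm and yolk sac endoderm above it.

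Among the kinases neither was called at E6.5. Hk2 had a log2 fold change of -0.20 (SE 0.122, adjusted p = 0.175) in exEndo 1 and -0.63 (SE 0.146, adjusted p = 0.00241) in exEndo 2, the latter below the fold threshold. Pfkp had -0.89 (SE 0.241, adjusted p = 0.0075) and 0.01 (SE 0.243, adjusted p = 0.966).

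The lower pathway was called lower in most cases. Pkm was at 1945, 2660, 2583 and 1434 TPM in Epi against 806.9, 784.6, 669.6 and 958.2 TPM in exEndo 1 and 741.5, 747.8, 812.3 and 909.6 TPM in exEndo 2, with no overlap. Its log2 fold change was -1.39 (SE 0.194, adjusted p = 8.07e-05) in exEndo 1 and -1.39 (SE 0.178, adjusted p = 2.81e-05) in exEndo 2.

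Pgk1, phosphoglycerate kinase, was at 813.6, 913.4, 789.1 and 1347 TPM in Epi, 544.2, 357.3, 337.9 and 355 TPM in exEndo 1 and 424.9, 287.6, 295.6 and 373.4 TPM in exEndo 2. Epi replicate 4 was well above the other epiblast libraries, and all 4 were above the endoderm. The log2 fold changes were -1.27 (SE 0.197, adjusted p = 0.000181) and -1.47 (SE 0.182, adjusted p = 2.11e-05).

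Aldoa, aldolase A, and Eno1, enolase 1, differed in size between the 2 endoderm parts. Aldoa was at 1446 to 1849 TPM in Epi, 664.3 to 890.9 TPM in exEndo 1 and 1163 to 1359 TPM in exEndo 2, all 3 ranges apart. Between the 2 endoderm parts, 8.32% of all genes were apart with exEndo 2 higher. The log2 fold change from Epi was -1.15 (SE 0.125, adjusted p = 1.12e-05) in exEndo 1 and -0.44 (SE 0.105, adjusted p = 0.0031) in exEndo 2, the latter not called. Eno1 had -1.37 (SE 0.206, adjusted p = 0.000145) in exEndo 1 and -0.98 (SE 0.191, adjusted p = 0.000722) in exEndo 2, just short of the fold threshold, and was called lower there with FPKM or with median-ratio rescaling.

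Ldha was at 6350, 6683, 6378 and 6679 TPM in Epi and between 3193 and 4127 TPM in the 8 endoderm libraries, with no overlap, yet its log2 fold changes of -0.79 (SE 0.112, adjusted p = 8.6e-05) and -0.77 (SE 0.091, adjusted p = 1.48e-05) stayed below the fold threshold. Pdk1 had -0.58 (SE 0.228, adjusted p = 0.045) and -0.23 (SE 0.181, adjusted p = 0.277). With quantile normalization the genes called in exEndo 1 split into 1952 higher and 1973 lower, where the TPM as deposited gave 2389 and 1635, and the median of all genes moved by -0.21. Pfkp was then called lower as well, as it was with median-ratio rescaling.

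The other genes of the pathway changed in both directions. In exEndo 1, 15 of 18 other glycolytic enzymes were tested, of which 4 were called higher and 8 lower, with a list median log2 fold change of -1.07 against 0.09 for all genes. Hkdc1 (log2 fold change 5.45, SE 0.24) was among those that rose, and Eno3, the muscle enolase (-2.98, SE 0.219), and Ldhb, the heart-type lactate dehydrogenase (-2.54, SE 0.245), fell most. Of 5 tested sugar and monocarboxylate transporters, Slc2a2, the liver and gut glucose transporter (5.15, SE 0.469), and Slc16a1 (3.90, SE 0.126) rose and Slc16a3, a lactate exporter (-2.84, SE 0.478), fell. Of 15 tested hypoxia-inducible genes outside glycolysis 2 rose (Vegfa by 2.97, SE 0.239, and P4ha1 by 2.51, SE 0.21) and 4 fell, led by Ddit4 (-1.80, SE 0.271) and Egln3 (-1.58, SE 0.188).

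In exEndo 2, 14 other enzymes were tested and 3 were called in each direction, with Hkdc1 (4.20, SE 0.242) again on the higher side and Ldhb (-3.80, SE 0.172) and Eno3 (-2.90, SE 0.181) on the lower. The mitochondrial pyruvate carrier subunits Mpc1 and Mpc2 were called higher in both endoderm parts, Mpc2 by 2.99 (SE 0.235) in exEndo 1 and 3.35 (SE 0.159) in exEndo 2 on the log2 scale. Epas1, which encodes HIF-2α, was called higher in exEndo 2 (3.17, SE 0.5).

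Between the endoderm parts themselves no member was called, where 3.96% of 11414 genes were higher and 2.45% lower in exEndo 1. With limma, 3272 genes had an unadjusted p below 0.05. Aldoa had a log2 fold change of -0.72 (SE 0.109, adjusted p = 0.00147) for exEndo 1 against exEndo 2 and Eno1 one of -0.38 (SE 0.116, adjusted p = 0.0484), both below the fold threshold. The value of Pfkp was larger in size but missed the adjusted p in this unpaired fit (-0.90, SE 0.285, adjusted p = 0.0588). With the replicate number as a block in limma, Pfkp passed the adjusted p (SE 0.254, adjusted p = 0.0358). Aldoa (adjusted p = 0.000433) and Eno1 (adjusted p = 0.0216) passed it too, and each stayed below the fold threshold. Outside the set, Epas1 (-2.98, SE 0.522), Pdk2, another pyruvate dehydrogenase kinase (-1.86, SE 0.21), and the muscle phosphofructokinase Pfkm (-1.09, SE 0.19) were lower in exEndo 1, and the phosphoglycerate mutase Pgam2 (1.92, SE 0.36), Ldhb (1.25, SE 0.276) and Hkdc1 (1.25, SE 0.288) were higher.

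**Figure D4:**
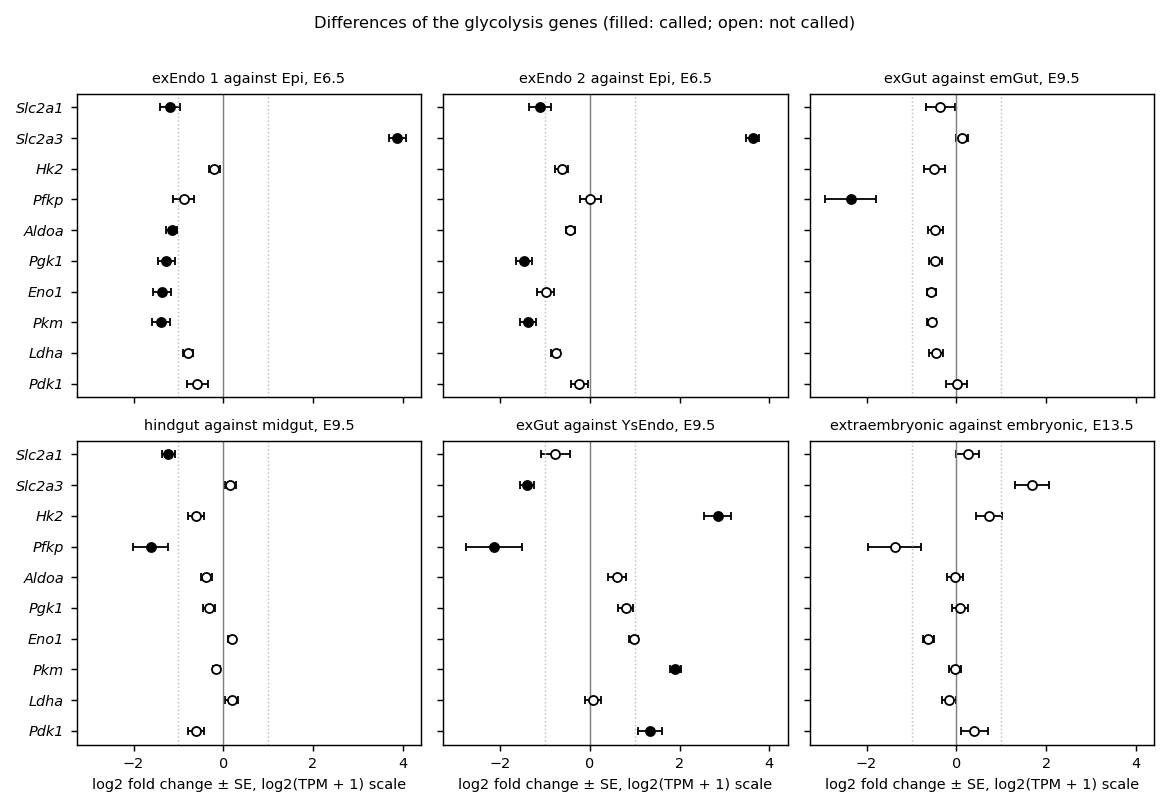
Log2 fold change on the log2(TPM + 1) scale with its SE for the 10 members in 6 comparisons; filled points were called and open points were not, and dotted lines mark the fold threshold of 1. Slc2a3 rose in both E6.5 endoderm parts (3.88 and 3.63), and Pfkp was the member called between exGut and emGut (-2.36).

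At E9.5 the extraembryonic and embryonic gut cells (exGut and emGut, midgut and hindgut together, 8 libraries each) were compared to ask what still separates the origins in the same tissue. Pfkp was lower in exGut and was the 1 member called, where 1.27% of 13473 genes were called lower and 1.08% higher. The members had a median log2 fold change of -0.47, against -0.03 for all genes, and 8 of 10 had a negative sign. Pkm and Eno1 had small differences with an adjusted p below 0.05, and neither transporter passed the test.

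Pfkp was at 80.5, 64.7, 51.2 and 22.8 TPM in emMidgut and 14.5, 9.15, 21.8 and 1.99 TPM in exMidgut, and at 31.1, 18.0, 9.76 and 11.7 TPM in emHindgut and 5.00, 1.72, 4.33 and 0.24 TPM in exHindgut. Within each region every embryonic library was above every extraembryonic one, although the spread within a group was several-fold. The same held for 5.67% of all genes in midgut and 6.74% in hindgut. The log2 fold change was -2.36 (SE 0.56, adjusted p = 0.0202) over both regions, -2.32 (SE 0.572, adjusted p = 0.0187) in midgut and -2.40 (SE 0.572, adjusted p = 0.0187) in hindgut. Without emMidgut replicates 1 and 3, the libraries with germ cell markers, it was -1.98 (SE 0.59, adjusted p = 0.0789) and no longer called. The part of those cells in the difference was not tested. Pfkp made up 10.3% ± 4.48 of phosphofructokinase TPM in emMidgut, 5.17% ± 2.27 in emHindgut, 3.11% ± 1.87 in exMidgut and 1.06% ± 0.858 in exHindgut. The isoenzymes Pfkl (-0.38, SE 0.172, adjusted p = 0.269) and Pfkm (-0.55, SE 0.269, adjusted p = 0.319) were not called.

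Pkm was at 2571 to 3732 TPM in emGut, with a median of 2997 TPM, and at 1611 to 2588 TPM in exGut, with a median of 2018 TPM. The groups overlapped only by 1 exMidgut library, and the log2 fold change was -0.55 (SE 0.0945, adjusted p = 0.00138). Eno1 was at 2319 to 3604 TPM in emGut (median 2763 TPM) and 1590 to 2133 TPM in exGut (median 1964 TPM), without overlap, with a log2 fold change of -0.56 (SE 0.0936, adjusted p = 0.00115). Over both regions 0.742% of all genes were apart with emGut higher. Without the germ cell marker libraries the values were -0.52 (adjusted p = 0.00912) for Pkm and -0.62 (adjusted p = 0.00109) for Eno1.

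Aldoa (-0.47, SE 0.163), Pgk1 (-0.47, SE 0.155) and Ldha (-0.46, SE 0.156) had nearly equal log2 fold changes with adjusted p of 0.129, 0.115 and 0.122. With region as a covariate these became 0.0194, 0.0208 and 0.0348, still below the fold threshold. Hk2 had -0.49 (SE 0.234, adjusted p = 0.303) and Slc2a1 -0.36 (SE 0.325, adjusted p = 0.64). Slc2a3, at 283.1 to 571.9 TPM in exGut and 291.2 to 461.4 TPM in emGut, overlapped almost fully (0.12, SE 0.133, adjusted p = 0.726), as did Pdk1 (0.01, SE 0.231, adjusted p = 0.995).

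Outside the set, Fbp2, the muscle fructose bisphosphatase of gluconeogenesis, was called higher in exGut (2.11, SE 0.556, adjusted p = 0.0396), and no other gene of the lists of enzymes, transporters, flux regulators, gluconeogenesis, pentose phosphate, hypoxia-inducible genes and regulators was called. No member was called for a difference between regions in the effect of origin, where 0.0965% of 13473 genes (13 genes) were. With limma 1052 genes had an unadjusted p below 0.05 in that test. The largest interaction estimate of a member was that of Aldoa (-0.30, SE 0.249, adjusted p = 0.854). Visceral endoderm markers summed to 5790 to 12000 TPM in exMidgut and 873 to 1540 TPM in emMidgut, and their part in the small differences was not tested.

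Over all genes, hindgut and midgut differed more than the origins did, with 1910 genes called between regions and 316 between origins. With region as a covariate, 587 genes were called between origins. By calls, 2 members passed between regions and 1 between origins. The members' median log2 fold change was -0.35 by region and -0.47 by origin, and that of all genes was -0.01 and -0.03. Slc2a1 and Pfkp were lower in hindgut and were the 2 members called lower, where 8.63% of genes were called lower and 5.54% higher, and no member was called higher. Slc2a1 was at 505.1, 733.3, 678.9 and 326.3 TPM in exMidgut and 264.8, 300.0, 219.2 and 188.2 TPM in exHindgut. It was at 751.8, 819, 783.4 and 565.1 TPM in emMidgut and 399.9, 246.0, 279.5 and 268.9 TPM in emHindgut. Midgut lay above hindgut without overlap within either origin. Such a gap with midgut higher was found for 11% of all genes within exGut and for 13.4% within emGut.

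The log2 fold change of Slc2a1 was -1.23 (SE 0.144, adjusted p = 7.39e-07), made up of -1.16 (SE 0.207, adjusted p = 0.000369) within exGut and -1.30 (SE 0.207, adjusted p = 9.61e-05) within emGut. That of Pfkp was -1.62 (SE 0.395, adjusted p = 0.0029), with -1.66 (SE 0.572, adjusted p = 0.0437) within exGut and -1.58 (SE 0.572, adjusted p = 0.054) within emGut. Without the germ cell marker libraries both stayed called, at -1.18 (adjusted p = 1.62e-05) for Slc2a1 and -1.48 (adjusted p = 0.0168) for Pfkp. Hk2 (-0.61, SE 0.181, adjusted p = 0.0119), Pdk1 (-0.60, SE 0.178, adjusted p = 0.0115) and Aldoa (-0.38, SE 0.126, adjusted p = 0.0247) had smaller differences, and Slc2a3 had 0.15 (SE 0.12, adjusted p = 0.355).

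Of 16 other glycolytic enzymes tested between the regions 1 was called higher and 2 lower in hindgut. Bpgm, which makes 2,3-bisphosphoglycerate, rose in hindgut (1.52, SE 0.151) and Hkdc1 fell (-3.18, SE 0.291). Of 15 hypoxia-inducible genes outside glycolysis 3 fell, Ndrg1 (-1.77, SE 0.411), Adm (-1.65, SE 0.449) and Bnip3 (-1.50, SE 0.261), and none was called higher. Among 6 transcriptional regulators Hif1a fell (-1.36, SE 0.103) while Myc (1.95, SE 0.369) and Mycn (1.15, SE 0.165) rose. Summed visceral endoderm markers were at 29.8 to 655 TPM in exHindgut and 4.14 to 40.9 TPM in emHindgut, and all 6 were called lower in hindgut. Their part in the regional differences was not tested.

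Yolk sac endoderm of E9.5, the extraembryonic endoderm that stays outside the embryo, was compared with exGut. Hk2, Pdk1 and Pkm were higher in exGut and Slc2a3 and Pfkp were lower, 3 members called higher where 32.3% of 12801 genes were and 2 called lower where 10% were. The members' median log2 fold change was 0.70 and that of all genes 0.59, and visceral endoderm markers summed to 49800 to 57900 TPM in YsEndo. Their part in that shift was not tested. Median-ratio rescaling moved the median of all genes by -0.53, gave 2698 genes higher and 2275 lower in place of 4138 and 1285, left Pdk1 uncalled and added Slc2a1 as lower. Quantile normalization gave 2124 and 2150 and left Pdk1 uncalled but added Eno1. Hk2, Pkm, Slc2a3 and Pfkp kept their calls and directions under both scalings.

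Hk2 was at 6.24, 5.54, 3.53 and 3.17 TPM in YsEndo and at 19.8 to 83.2 TPM in exGut, with a median of 36.8 TPM. The groups were apart, with a log2 fold change of 2.85 (SE 0.301, adjusted p = 1.68e-06). Hkdc1 went the other way at 93.8 TPM in YsEndo (mean, n = 4) against 42.9 TPM in exMidgut and 5.90 TPM in exHindgut (log2 fold change -2.49, SE 0.668).

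Pkm was at 413.9, 596.5, 602.7 and 577.3 TPM in YsEndo and at least 1611 TPM in each exGut library, a log2 fold change of 1.91 (SE 0.128, adjusted p = 1.72e-08). Slc2a3 was at 1072, 1225, 1094 and 1099 TPM in YsEndo and at most 571.9 TPM in exGut (-1.39, SE 0.158, adjusted p = 3.36e-06). Both genes had no overlap between the groups. Such a gap was found for 32.4% of all genes with exGut higher and for 11.1% with YsEndo higher. Pfkp was at 21.5 to 26.7 TPM in YsEndo and at most 21.8 TPM in exGut (-2.14, SE 0.624, adjusted p = 0.00837). The groups overlapped only by 1 exMidgut library, which exceeded the lowest YsEndo library.

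Pdk1 was at 14.6 to 19.6 TPM in YsEndo and 18.9 to 65.3 TPM in exGut (1.34, SE 0.264, adjusted p = 0.000533). Eno1 fell just short of the fold threshold (0.98, SE 0.102, adjusted p = 1.48e-06), Pgk1 (0.80, SE 0.174, adjusted p = 0.00119) and Aldoa (0.61, SE 0.198, adjusted p = 0.0155) lay near the median of all genes, and Ldha was at 0.07 (SE 0.176, adjusted p = 0.734).

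Of 16 other glycolytic enzymes 7 were higher and 3 lower in exGut, among them Eno3 (5.42, SE 0.34), Pklr, the liver pyruvate kinase (-3.95, SE 0.556), and Pgam2 (3.81, SE 0.414). The transporters Slc2a2 (-6.15, SE 0.534) and Slc16a1 (-1.92, SE 0.147) were lower and Slc16a3 (5.42, SE 0.311) was higher. Of 14 hypoxia-inducible genes outside glycolysis 8 were higher and 0 lower, led by Ddit4 (5.12, SE 0.222), Egln3 (2.88, SE 0.403), Mxi1 (2.82, SE 0.291) and Kdm3a (2.80, SE 0.186), with a list median of 1.39 against 0.59 for all genes.

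At E13.5 the Trp53 knockout extraembryonic cells were compared with wild-type embryonic cells of the same organs. No member was called, where 0.481% of 12483 genes were higher and 0.144% lower. With limma 1415 genes had an unadjusted p below 0.05. Slc2a3 missed the adjusted p narrowly, and its call changed with the fit, while Eno1 was lower by less than the fold threshold. The median log2 fold change was 0.02 over the members and 0.11 over all genes.

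Slc2a3 was at 69.9, 105.0 and 132.3 TPM in exColon and 13.3, 82.0 and 33.7 TPM in emColon, and at 113.5, 118.4 and 170.6 TPM in exSI and 16.6, 54.8 and 50.9 TPM in emSI. The small intestine groups were apart, while in colon emColon replicate 2 exceeded the lowest exColon library. In small intestine 8.15% of all genes were apart with exSI higher. The log2 fold change was 1.69 (SE 0.386, adjusted p = 0.053), with 1.54 (SE 0.561, adjusted p = 0.253) in colon and 1.84 (SE 0.561, adjusted p = 0.304) in small intestine. It was called without emColon replicate 2.

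Eno1 was at 1090 to 1513 TPM in the 6 extraembryonic libraries (median 1386 TPM) and 1760 to 2647 TPM in the 6 embryonic ones (median 1947 TPM), without overlap. Likewise 0.473% of all genes were apart with the embryonic libraries higher. The log2 fold change of Eno1 was -0.63 (SE 0.121, adjusted p = 0.0171). Hk2 was at 35.4, 44.6 and 68.8 TPM in exColon and 29.3, 23.8 and 14.5 TPM in emColon and overlapped in small intestine, with 0.72 (SE 0.29, adjusted p = 0.35) over both organs.

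Pfkp was near 0 in exSI (0.17, 0.04 and 0 TPM) and at 0, 3.11 and 1.87 TPM in emSI, with a log2 fold change over both organs of -1.38 (SE 0.598, adjusted p = 0.388). The other 6 members had log2 fold changes between -0.17 and 0.40, with adjusted p of at least 0.691. Ankrd37, an ankyrin repeat gene induced by hypoxia, was called outside the set (1.34, SE 0.29, adjusted p = 0.0387), as 1 of 16 tested genes of its list.

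No member was called for a difference between the organs in the effect of origin, where 0.016% of genes (2 genes) were. An unadjusted p below 0.05 by limma was found for 1038 genes. The largest estimates of members were those of Pdk1 (1.19, SE 0.539, adjusted p = 0.583) and Slc2a1 (-1.04, SE 0.455, adjusted p = 0.567). Pdk1 had 0.99 (SE 0.381) in colon and -0.20 (SE 0.381) in small intestine, and Slc2a1 had -0.27 (SE 0.322) and 0.77 (SE 0.322). Between colon and small intestine no member was called, where 0.529% of genes were higher and 0.769% lower in colon, and limma gave 1469 genes an unadjusted p below 0.05. Pfkp had the largest estimate (2.09, SE 0.598, adjusted p = 0.116), with 7.59 to 13.2 TPM in emColon and at most 3.11 TPM in emSI, and was called without exColon replicate 1. Ndrg1 (-2.17, SE 0.353) was lower in colon. Without emSI replicate 1, the library with 384 TPM of summed mesenchyme markers, no member was called between origins or between organs. None was called with it either, so leaving it out could not remove a call. The part of mesenchyme cells in these comparisons was not tested.

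Comparisons between stages describe the same lineages at different ages, but stage, tissue and way of collection cannot be told apart in them. From Epi to emGut, Slc2a3 alone was called among the members, 1 higher and 0 lower where 22.4% of 13053 genes were higher and 7.31% lower. It was at 48.0 to 56.0 TPM in Epi and 291.2 to 461.4 TPM in emGut (median 409.1 TPM), without overlap, with a log2 fold change of 2.92 (SE 0.124, adjusted p = 3.29e-10). Every emGut library was above every Epi library for 23.6% of all genes. Slc2a1 did not pass the test (0.10, SE 0.343, adjusted p = 0.83). Rescaling moved the median of all genes by -0.29 (median ratio, 2187 genes higher and 1611 lower) or -0.40 (quantile, 1828 and 1935), where the deposited TPM gave 2920 and 954, and Slc2a3 stayed the member called. Of 15 other glycolytic enzymes 6 were called higher and 0 lower, led by Hkdc1 (3.43, SE 0.893), Pgam2 (2.65, SE 0.297) and Eno3 (2.43, SE 0.158), and of 15 hypoxia-inducible genes 7 were higher and 0 lower, led by Vegfa (2.60, SE 0.328).

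From exEndo 1 to exGut, Aldoa, Eno1, Pkm and Pdk1 were called higher and no member lower, where 18.8% of 12931 genes were higher and 11.5% lower. Pkm went from 669.6 to 958.2 TPM in exEndo 1 to 1611 to 2588 TPM in exGut (1.35, SE 0.123, adjusted p = 7.49e-07), and Eno1 from 715.9 to 973.4 TPM to 1590 to 2133 TPM (1.20, SE 0.11, adjusted p = 7.78e-07), both without overlap. Full separation with exGut higher was found for 18.8% of all genes. Aldoa had 1.14 (SE 0.196, adjusted p = 0.000251) and Pdk1 1.13 (SE 0.294, adjusted p = 0.00562). With median-ratio rescaling Pkm and Eno1 remained the 2 members called, and genes split into 2156 higher and 1847 lower in place of 2436 and 1488. With quantile normalization the split was 1912 and 1960, and Pfkp was called lower beside the 4 members called higher. Pdk1 was not called without exEndo 1 replicate 2 (0.88). Slc2a3 had -0.84 (SE 0.195, adjusted p = 0.00261) and Ldha 0.01 (SE 0.18, adjusted p = 0.964). Of 16 other glycolytic enzymes 7 were higher and 2 lower, with Eno3 (4.43, SE 0.299) and Ldhb (3.11, SE 0.216) on the higher side.

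From exEndo 2 to YsEndo, Slc2a1 was called higher and Hk2 lower, 1 member each where 7.95% of 11205 genes were higher and 21.6% lower. Slc2a1 went from 128.6 to 250.8 TPM to 562.1 to 637.3 TPM (1.62, SE 0.169, adjusted p = 4.64e-06), and Hk2 from 32.8 to 48.0 TPM to 3.17 to 6.24 TPM (-3.02, SE 0.209, adjusted p = 1.39e-07), neither with overlap. Full separation was found for 15.6% of all genes with YsEndo higher and for 44% with exEndo 2 higher. Hkdc1 rose by 2.19 (SE 0.227) on the log2 scale and Slc2a2 by 2.51 (SE 0.256). Median-ratio rescaling moved the median of all genes by 0.42 and gave 1497 genes higher and 1135 lower in place of 891 and 2424, and Slc2a3 was then also called higher. Quantile normalization gave 1272 and 1153. Of 14 hypoxia-inducible genes 0 were higher and 6 lower, led by Vegfa (-1.93, SE 0.191) and Egln3 (-1.89, SE 0.29).

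From E9.5 to E13.5 both transporters fell in the gut of either origin. In embryonic gut Slc2a3, Pfkp, Slc2a1 and Pkm were called lower and no member higher, where 15.2% of 13525 genes were lower and 2.59% higher. In extraembryonic gut, which was wild type at E9.5 and Trp53 knockout at E13.5, Slc2a3 and Slc2a1 were called lower, where 9.6% of 13460 genes were lower and 2.78% higher. Whether the falls differ between the origins was not tested.

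Slc2a3 fell from 291.2 to 461.4 TPM (median 409.1 TPM) to 13.3 to 82.0 TPM (median 42.3 TPM) in embryonic gut, a log2 fold change of -3.46 (SE 0.313, adjusted p = 2.36e-06). In extraembryonic gut it fell from 283.1 to 571.9 TPM (median 435.6 TPM) to 69.9 to 170.6 TPM (median 115.9 TPM), a log2 fold change of -1.89 (SE 0.187, adjusted p = 6.33e-06). Neither comparison had overlapping libraries. The same was true, with E9.5 higher, of 6.1% of all genes in embryonic gut and 3.58% in extraembryonic gut. Slc2a1 fell by 1.86 (SE 0.349, adjusted p = 0.00125) in embryonic and by 1.25 (SE 0.271, adjusted p = 0.00473) in extraembryonic gut on the log2 scale, again without overlap.

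Pfkp had -2.51 (SE 0.607, adjusted p = 0.00685) in embryonic gut and -1.53 (SE 0.689, adjusted p = 0.129) in extraembryonic gut. Pkm had -1.02 (SE 0.112, adjusted p = 1.15e-05) and -0.50 (SE 0.116, adjusted p = 0.00723), and the first was at the threshold: it was -0.99 without the germ cell marker libraries and -0.98, -0.97 and -0.97 without emMidgut replicate 2, emColon replicate 3 and emSI replicate 1. The members had a median of -0.80 in embryonic gut against -0.46 for all genes, and -0.43 against -0.28 in extraembryonic gut.

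Rescaling shifted these medians too. In embryonic gut the genes called higher and lower were 350 and 2054 with TPM, 440 and 1197 with FPKM, 550 and 1151 with median-ratio rescaling and 696 and 619 with quantile normalization. In extraembryonic gut they were 374 and 1292, 462 and 881, 497 and 926, and 633 and 603. Slc2a3 and Slc2a1 stayed called lower under each of them in both origins, and Pkm lost its call in embryonic gut with FPKM (-0.82) and with median-ratio rescaling (-0.72).

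Among the other genes of the pathway, Fbp2 rose with stage in embryonic (5.04, SE 0.527) and extraembryonic gut (2.56, SE 0.637), while the monocarboxylate transporters Slc16a1 (-2.27, SE 0.255, and -2.42, SE 0.205) and Slc16a3 (-2.78, SE 0.386, and -1.41, SE 0.266) fell. Of the hypoxia-inducible genes outside glycolysis 1 rose and 4 fell among 15 tested in embryonic gut and 3 rose and 3 fell among 16 in extraembryonic gut. Ndrg1 was among those that rose in both (3.14, SE 0.585, and 3.29, SE 0.659) and Ddit4 among those that fell (-1.86, SE 0.446, and -2.20, SE 0.322).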

How the data were processed

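Gene tables of 44 low-input bulk RNA-seq libraries were used. Per the submitters' notes and the study's methods, adapters were removed by the authors (cutadapt 4.1), reads were mapped to mm10 plus GFP and mCherry (STAR 2.7.9a) and genes were quantified by StringTie 2.0.6. The deposited TPM values, scaled by the authors to an equal total per library, were the main measure, and the deposited FPKM values served as an alternative. The coverage column deposited by the authors was used only to estimate aligned bases (2.06 to 7.02 Gb per library). No read counts were used, so counting intervals are not given.

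TPM was summed per gene identifier. Protein-coding genes (GENCODE biotype, Y chromosome left out) with TPM over 1 in at least 4 libraries (3 where E13.5 libraries entered) were tested on log2(TPM + 1), a scale that understates changes of low genes, with limma 3.58.1 in R 4.3.3 (empirical Bayes with trend, Benjamini-Hochberg adjustment over all tested genes). Calls needed an adjusted p below 0.05 and an absolute log2 fold change over 1, and interaction calls the former alone. The fit was tested on simulated data. Alternatives comprised FPKM, a 0.1 pseudocount, omitting the filter or the trend, median-ratio and quantile rescaling, 1 fit over all 44 libraries, a region or organ covariate, a replicate block and leaving out each library. Leaving out emMidgut replicates 1 and 3 together was added after seeing the data.

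All 10 members are named. Other genes come from 7 pathway lists, at most 4 per list and comparison, the largest absolute log2 fold change first among those called, plus isoenzymes of members and the 5 genes most like the members' mean. A single gene of the lists was left out and is not reported here. The members and lists were chosen with earlier results of these data known. Same-numbered libraries deviated together in 1 comparison, exEndo 1 against exEndo 2 (4 pairs, r = 0.167 to 0.402). The pairing there comes from the labels' numbers and this check.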

Additional observations from a re-analysis of the deposited data

Results flagged for a closer look

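Within the groups of 4 libraries, 5 of 80 sets of member values had a library whose gap to its nearest neighbour, as a part of the group's range, exceeded Dixon's 95% critical value, and chance gives about 1 in 20. Hk2 in exEndo 2 replicate 3 was at 32.77 TPM while the other 3 libraries lay at 47.12 to 47.98 TPM. Aldoa in exEndo 2 replicate 4 was at 1359 TPM against 1163 to 1181 TPM. Pgk1 in exEndo 1 replicate 1 was at 544.2 TPM against 337.9 to 357.3 TPM. Pkm in YsEndo replicate 1 was at 413.9 TPM against 577.3 to 602.7 TPM. Ldha in exEndo 1 replicate 3 was at 3193 TPM against 3932 to 4047 TPM.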

How the results depend on the processing

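The 31 calls of a member in a comparison were recomputed to give 623 values under the alternatives, of which 610 kept their call, 13 lost it and 0 changed direction. With all 44 libraries in 1 fit the genes called were 458 for exEndo 1 against exEndo 2, 591 for exGut against emGut, 47 for the interaction with region, 1207 for origin at E13.5 with 2 members, 1409 for the interaction with organ, 1347 for colon against small intestine with 1 member, and 2784 for extraembryonic gut by stage. A region covariate gave 587 genes for exGut against emGut. For the interaction with region a pseudocount of 0.1 gave 0 genes, no filter 8, no trend 8, and leaving out emMidgut replicates 1 and 3 gave 5, with 0 members for exGut against emGut. For the interaction with organ a pseudocount of 0.1 gave 0, no filter 14 and no trend 6. No filter gave 81 genes for colon against small intestine. Median-ratio rescaling left 2 members for exGut against exEndo 1, and quantile normalization gave 1315 genes for embryonic gut by stage. Leaving out single libraries gave 0 to 1 members for exEndo 1 against exEndo 2 (1 without exEndo 1 replicate 4), for origin at E13.5 (1 without emColon replicate 2) and for colon against small intestine (1 without exColon replicate 1), 3 to 19 genes for the interaction with region and 0 to 3 for that with organ. The cause of these changes was not tested.

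With the replicate number as a block, 8 genes had an interaction with region, and 1 member, Slc2a3, was called at E13.5 (1.69, SE 0.298, adjusted p = 0.0086). The block changed no call of a member between exEndo 1 and exEndo 2. In the other comparisons the deviations of same-numbered libraries over all genes had a median r of -0.02 to 0.04, and no source used here says that a number marks the same embryo, so these libraries were not treated as paired, although some members had like ranks by number at E9.5 and E13.5.

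TPM carries no read depth, so low values such as those of Pfkp at E13.5 have no counting error attached, and groups of 3 or 4 libraries limit every comparison. FPKM and the rescalings bear most on comparisons with YsEndo and between stages.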

Other observations

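Libraries of equal number had like ranks across groups for some members. At E9.5 replicate 4 was the lowest of its group in all 4 gut groups for Aldoa, Pgk1 and Ldha, 3 of 10 members, while 2.44% of 13471 genes had the same replicate number lowest in those groups. At E13.5 replicate 2 was the highest in all 4 groups for Slc2a1, Aldoa, Pgk1 and Ldha, 4 of 10 members against 5.02% of 12481 genes, and replicate 1 was the lowest for Slc2a1, Slc2a3 and Pgk1, 3 of 10 members against 5.77%. The members share libraries and are not independent of each other.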
